A study of Mus musculus with 9 samples.

Results

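The immunoglobulin light chain variable (V) genes were examined in duodenal tissue of mice. The genes were those with the biotype IG_V_gene and a name beginning with Igkv (kappa) or Iglv (lambda) that had a value above 0 in at least 3 of the 9 libraries. Of 54532 genes in the expression table, 103 were annotated as light chain V genes, 100 kappa and 3 lambda, and 87 met the rule. These were 84 kappa genes of 18 families and 3 lambda genes. Of the 16 genes left out, 6 were at 0 in all libraries and 10 had a value in 1 or 2 libraries. Just inside the limit stood 5 genes with values in exactly 3 libraries, among them Igkv5-37 with 23.0 FPKM in CeD+GR 1, 4.59 FPKM in control 1 and 18.3 FPKM in control 3. Just outside were 7 genes with values in 2 libraries, of which Igkv4-92 was the highest, at 0.368 FPKM in CeD+GR 1 and 1.60 FPKM in CeD 1. FPKM is the number of fragments scaled to gene length and library size, so levels of different genes can be set side by side.

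The study compared 3 groups of 3 libraries. CeD+GR mice modelled celiac disease, in which gluten drives an immune attack on the gut, by delayed-type hypersensitivity. They were given composite nanoparticles of gliadin, a fraction of gluten, and rapamycin, an inhibitor of the mTOR kinase, before enhanced gluten stimulation. CeD mice were the same model with enhanced gluten stimulation and no particles. Control mice were wild type (WT in the labels) and received gluten stimulation that was not enhanced, so all 3 groups met gluten. Strain, age and sex are not stated in the labels. Whether each library is a separate animal is not stated either, so a p-value here reflects only library-to-library spread, which may be technical. A library is named by its group followed by its replicate number. The design asks how the transcriptome of the duodenum differed after treatment with the particles in this model.

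A light chain is made by joining 1 V gene to a joining (J) segment, and the spliced transcript carries a constant (C) segment behind it. The kappa locus holds many V genes, 1 constant gene (Igkc) and a row of J segments, whereas the mouse lambda locus is small. In mice Iglv1 is joined mostly to J segments beside Iglc1 and Iglc3, and Iglv2 and Iglv3 mostly to the J segment beside Iglc2. Each B cell uses 1 light chain as a rule, so the mix of V transcripts in a tissue reflects which B lineage clones are present and how much each transcribes. In the gut most antibody transcripts come from plasma cells of the lamina propria, which secrete IgA. In whole tissue, fewer cells of a type and less RNA per cell cannot be told apart.

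The germline ends of the V genes are shown because they hold the part of the third antigen-contacting loop (CDR3) that each V gene brings to the joint. The last 60 coding bases of 9 genes, 5′ to 3′ on the coding strand, were read from the GENCODE M21 transcripts of the build GRCm38, where all 103 genes have the same start and end as in the expression table. Capitals mark the bases from the codon of the conserved cysteine before CDR3 to the end of the annotated coding sequence. The 3 lambda genes come first, then 6 kappa genes that carry high values or near-identical ends.
Iglv1: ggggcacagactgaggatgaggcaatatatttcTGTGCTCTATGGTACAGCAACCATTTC
Iglv2: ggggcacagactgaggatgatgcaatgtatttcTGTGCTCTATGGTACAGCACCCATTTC
Iglv3: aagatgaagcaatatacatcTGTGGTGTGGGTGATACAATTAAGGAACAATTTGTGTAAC
Igkv6-23: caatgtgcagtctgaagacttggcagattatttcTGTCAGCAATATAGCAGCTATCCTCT
Igkv6-15: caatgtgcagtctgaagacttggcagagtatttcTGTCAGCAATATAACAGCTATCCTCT
Igkv1-117: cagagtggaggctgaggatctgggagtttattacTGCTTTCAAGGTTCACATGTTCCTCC
Igkv1-110: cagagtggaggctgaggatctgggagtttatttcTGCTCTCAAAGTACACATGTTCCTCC
Igkv5-43: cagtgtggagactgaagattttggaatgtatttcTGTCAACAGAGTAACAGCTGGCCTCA
Igkv5-45: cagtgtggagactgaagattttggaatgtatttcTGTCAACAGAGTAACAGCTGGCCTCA
Their positions are chr16:19085017-19085076, chr16:19260401-19260460 and chr16:19241207-19241266 for Iglv1, Iglv2 and Iglv3, all on the minus strand. The kappa ends lie at chr6:70260409-70260468 (Igkv6-23), chr6:70406469-70406528 (Igkv6-15), chr6:69823355-69823414 (Igkv5-43) and chr6:69775750-69775809 (Igkv5-45) on the minus strand. Those of Igkv1-117 and Igkv1-110 lie at chr6:68121768-68121827 and chr6:68271208-68271267 on the plus strand.

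All 87 genes held a cysteine codon near the end, TGT in 59 and TGC in 28. The stretch from that codon to the end was 21 to 40 bases long with a median of 26. The 87 genes held 79 distinct sequences of this stretch. Iglv3 had the longest stretch, 40 bases. Read in frame from its cysteine codon, this stretch holds a TAA stop codon near its end. As annotated it therefore cannot be carried whole into a light chain. Over the whole coding sequence Iglv1 and Iglv2 were 96.9% identical, with 11 substitutions in 351 aligned bases, whereas Iglv1 and Iglv3 were 55.8% identical. Median identity was 89.9% between kappa genes of 1 family, 64.3% between kappa genes of different families and 52.8% between kappa and lambda genes. Igkv5-43 and Igkv5-45 have the same 60 bases at the end and were 98.6% identical over the coding sequence, as were Igkv6-20 and Igkv6-29. Another light chain V gene at least 95% identical was found for 42 of the 87 genes, and 1 at least 98% identical for 7. The counting of reads that match several V genes is not described in the labels, so values of such neighbours are uncertain.

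Reads assigned to genes numbered 15373260 to 16852104 per library. The libraries differed in other tissue markers. The 7 gastric and Brunner gland genes summed to 122328 FPKM in CeD+GR 3 and to 0 to 48.2 FPKM in the other 8 libraries. The 10 exocrine pancreas genes summed to 3787 FPKM in CeD 1 and to at most 52.4 FPKM elsewhere, and the 5 fat genes to 314 FPKM in CeD+GR 2 and to at most 29.0 FPKM elsewhere. The 7 Paneth cell genes summed to 2116 FPKM in CeD+GR 1, 1991 FPKM in CeD 1 and 1048 FPKM in control 1, against 74.0 to 174 FPKM in the 6 libraries numbered 2 and 3. Enterocyte genes summed to 8577 to 32104 FPKM. Pdx1, which encodes a transcription factor of pancreas and proximal duodenum, was at 1.59 FPKM in CeD+GR 1 and 0.118 FPKM in CeD+GR 2, against 6.64 to 46.0 FPKM in the other libraries. The labels give no batch, and the part of these differences in the V gene values was not tested.

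The summed level of the 87 V genes was far higher in the library numbered 1 of each group than in the others. It was 2802, 174 and 513 FPKM in CeD+GR 1, 2 and 3, then 2548, 337 and 190 FPKM in CeD 1, 2 and 3, and 2851, 299 and 477 FPKM in control 1, 2 and 3. The 3 groups overlapped over nearly their whole range, and group means were 1163 ± 1430 FPKM in CeD+GR, 1025 ± 1321 FPKM in CeD and 1209 ± 1425 FPKM in control (SD, n = 3 each). The median of the 3 libraries numbered 1 was 8.81 times that of the other 6. As recovered whole reads, the V genes had 16155, 16807 and 19444 reads in CeD+GR 1, CeD 1 and control 1, and 1029 to 3179 reads in the other 6 libraries.

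The kappa constant segment was also highest in the library numbered 1 of each group, with a smaller span. Igkc was at 7030, 1909 and 2689 FPKM in CeD+GR 1, 2 and 3, then 5997, 1715 and 1984 FPKM in CeD 1, 2 and 3, and 6498, 2345 and 4997 FPKM in control 1, 2 and 3. The ratio of the median of the libraries numbered 1 to that of the other 6 was 3.00 for Igkc, against 9.59 for the summed kappa V genes. Summed kappa V level per 100 FPKM of Igkc was 36.2, 8.17 and 14.7 in CeD+GR, 38.7, 14.5 and 6.54 in CeD, and 34.2, 9.99 and 7.601 in control, each in replicate order. So the level of V relative to C differed between libraries and not only the level of both. On the lambda side, Iglv1 per 100 FPKM of Iglc1 was 80.7, 24.8 and 49.5 in CeD+GR, 98.04, 43.0 and 36.7 in CeD, and 80.8, 44.98 and 28.0 in control.

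**Figure D1:**
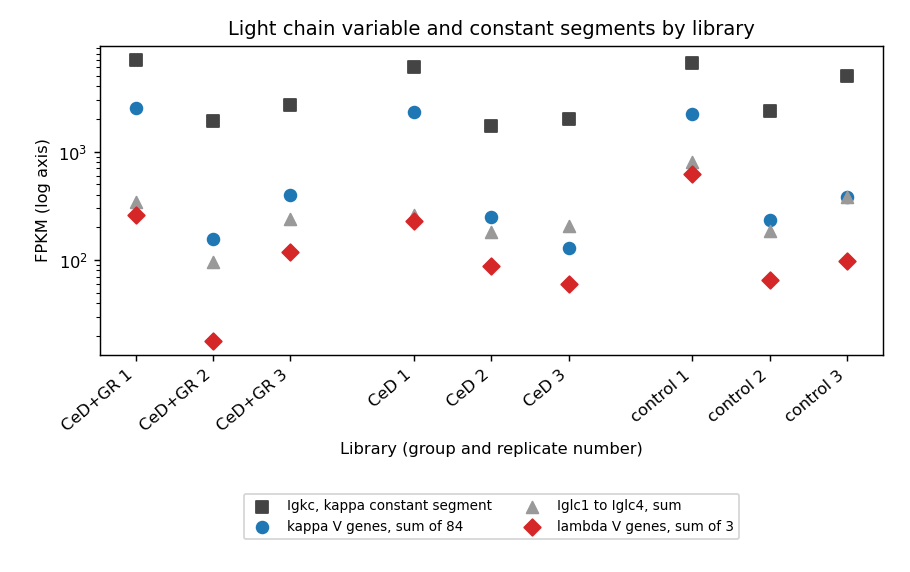
Summed FPKM of the 84 kappa V genes, the 3 lambda V genes and the constant segments Igkc and Iglc1 to Iglc4 (vertical log axis) in each of the 9 libraries (horizontal axis), 1 point per library and segment class. In CeD+GR 1, CeD 1 and control 1 the kappa V points, at 2225 to 2544 FPKM, lie below Igkc, at 5997 to 7030 FPKM. In the other 6 libraries they lie further below Igkc on the log axis, at 130 to 394 FPKM.

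The other antibody genes were in part highest in the same libraries. Summed heavy chain V genes had 1939, 84.2 and 306 FPKM in CeD+GR, 1897, 187 and 81.9 FPKM in CeD, and 1894, 187 and 267 FPKM in control, so the summed light chain V level was 1.34 to 2.32 times the heavy one in every library. The ratio of medians between libraries numbered 1 and the other 6 was 10.1 for heavy chain V genes. It was 2.37 for Igha, the IgA heavy chain constant gene, 2.05 for Jchain, which joins IgA into dimers, and 1.53 for Mzb1, a chaperone of plasma cells, which was higher in control 3 (20.7 FPKM) than in control 1 (17.8 FPKM). Ighm, the IgM heavy chain constant gene, had a ratio of 1.13 and its highest value, 23.7 FPKM, in CeD+GR 2, and Iglc3 had a ratio of 0.780. Pou2af1, a coactivator that works with octamer-binding factors on immunoglobulin promoters, had a ratio of 4.804, with 7.75, 1.62 and 2.54 FPKM in CeD+GR, 7.55, 1.50 and 1.43 FPKM in CeD, and 8.55, 1.61 and 3.88 FPKM in control. The 15 plasma cell markers together summed to 831 to 957 FPKM in the libraries numbered 1 and to 452 to 745 FPKM in the other 6. Jchain made up most of that sum in several libraries, with 691 FPKM in CeD+GR 1. For 4 of the 15 markers all 3 libraries numbered 1 lay above the other 6, and without Jchain the sums were 261 to 269 FPKM in the libraries numbered 1 and 150 to 483 FPKM in the other 6. Xbp1, Sdc1, Txndc5 and Fkbp11 were highest in CeD+GR 3, with 202, 46.7, 154 and 20.2 FPKM there. CeD+GR 3 also held 122328 FPKM of gastric and Brunner gland genes, and Jchain was lowest there, at 197 FPKM. Whether the high values in CeD+GR 3 came from plasma cells was not tested. The 15 B cell markers summed to 16.3 to 18.2 FPKM in the libraries numbered 1 and to 7.08 to 14.4 FPKM in the other 6, and for 4 of the 15 all 3 libraries numbered 1 lay above the rest. Genes of V(D)J recombination and of the surrogate light chain (Rag1, Rag2, Dntt, Vpreb1, Vpreb2 and Igll1) summed to at most 0.656 FPKM in any library, and Vpreb2 was at 0 in all. Their part in the V gene levels was not tested.

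The difference between the libraries numbered 1 and the rest ran through most single V genes. For 63 of the 87 genes all 3 libraries numbered 1 lay above the other 6. Among tested genes, those with a mean of at least 0.5 FPKM, this held for 61 of 78 light chain V genes, 78.2%, against 9.06% of all 14683 genes tested. A gene can meet the rule or the level tested through the libraries numbered 1 alone, which favours this outcome in both counts. Igkv4-51 met the rule in this way, with 1.64 FPKM in CeD+GR 1, 0.712 FPKM in CeD 1, 0.418 FPKM in control 1 and 0 elsewhere. The highest value was in CeD+GR 1 for 30 genes, in CeD 1 for 25 and in control 1 for 24. The other 8 genes were led by Iglv2, with its highest value in CeD 2, and Igkv12-89, with its highest value in CeD+GR 3. The remaining 6, namely Igkv14-126, Igkv14-130, Igkv8-18, Igkv7-33, Igkv11-125 and Igkv8-34, averaged 0.123 to 0.890 FPKM.

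Iglv1 (ENSMUSG00000076934, chr16:19085017-19085500) was the most abundant light chain V gene. Its level was 237, 18.0 and 108 FPKM in CeD+GR 1, 2 and 3, then 219, 70.3 and 58.0 FPKM in CeD 1, 2 and 3, and 612, 63.4 and 92.3 FPKM in control 1, 2 and 3. Control 1 was highest by far and CeD+GR 2 lowest. Iglv1 was the leading V gene in 8 of 9 libraries. In CeD+GR 2, with 111 Iglv1 reads, Igkv1-110 led with 11.1% of the summed V level, before Igkv6-23 with 10.6% and Iglv1 with 10.4%. As a share of the summed V level Iglv1 had 8.47%, 10.4% and 21.1% in CeD+GR, 8.58%, 20.9% and 30.5% in CeD, and 21.5%, 21.2% and 19.3% in control. The 3 control libraries lay close together, CeD+GR reached far below them, and CeD reached both below and above them.

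The other lambda genes were minor. Iglv2 had 10.2, 0 and 8.36 FPKM in CeD+GR, 3.06, 14.0 and 0.332 FPKM in CeD, and 4.20, 0.560 and 1.46 FPKM in control. Iglv3 had 10.3, 0 and 2.09 FPKM in CeD+GR, 8.39, 3.28 and 1.91 FPKM in CeD, and 9.80, 0.896 and 3.89 FPKM in control. In CeD+GR 2 neither had a read, which allows up to 0.520 FPKM of Iglv2 and 0.4999 FPKM of Iglv3 by a limit of 3 reads. Among the other lambda segments, Iglj1, the J segment beside Iglc1, had 42.5, 10.02 and 25.8 FPKM in CeD+GR, 19.2, 16.4 and 4.79 FPKM in CeD, and 111, 18.0 and 6.24 FPKM in control. Iglj1 spans only chr16:19063225-19063262, so each read adds far more FPKM to it than to a V gene, and its low values rest on few reads. Iglc1 averaged 195 ± 113 FPKM in CeD+GR, 181 ± 36.1 FPKM in CeD and 410 ± 316 FPKM in control (SD, n = 3 each), against 18.3 ± 10.6, 19.4 ± 5.07 and 28.5 ± 2.77 FPKM for Iglc2 in the same 3 groups.

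The share of all lambda V genes in the light chain V reads was 9.64% (95% Wilson interval 9.19% to 10.1%), 10.8% (9.04% to 12.8%) and 23.8% (22.3% to 25.3%) in CeD+GR 1, 2 and 3. It was 9.53% (9.09% to 9.98%), 26.7% (24.7% to 28.8%) and 33.1% (30.5% to 35.9%) in CeD 1, 2 and 3, and 22.9% (22.3% to 23.5%), 22.6% (20.6% to 24.7%) and 21.3% (19.8% to 22.8%) in control 1, 2 and 3. These intervals and the limits given for 0 reads cover counting error only. Within CeD+GR and within CeD some libraries differed by far more than their intervals, and in control the intervals overlapped. The kappa share of the summed V level was therefore 85.8% ± 7.75 in CeD+GR, 77.8% ± 11.8 in CeD and 78.6% ± 0.800 in control (SD, n = 3 each), and the ranges of CeD+GR and CeD overlapped that of control. With constant segments in place of V genes, lambda took a smaller share, 4.66%, 4.74% and 8.20% in CeD+GR, 4.14%, 9.59% and 9.36% in CeD, and 10.96%, 7.36% and 7.11% in control.

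**Figure D2:**
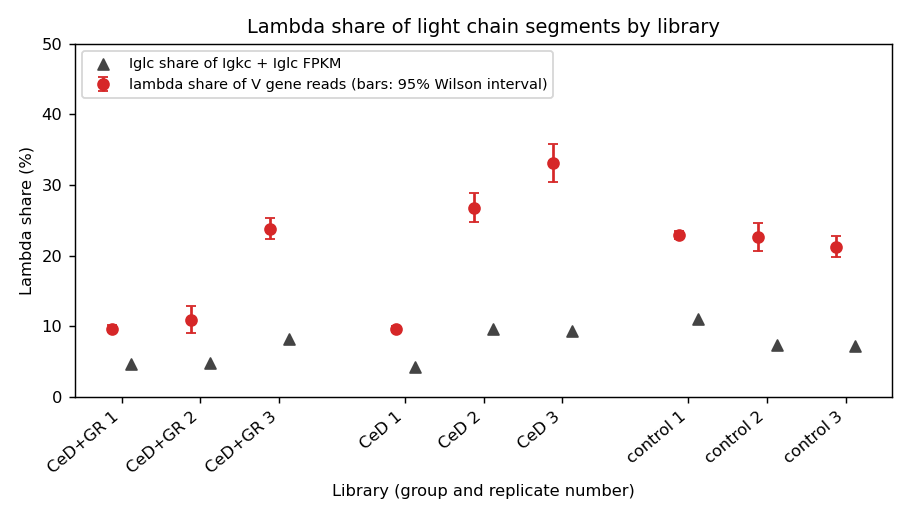
Lambda share in percent (vertical axis) for each of the 9 libraries (horizontal axis): circles give the share of lambda V genes in all light chain V reads, with 95% Wilson intervals as bars, and triangles the share of Iglc1 to Iglc4 in the summed FPKM of Igkc and Iglc. The 3 control circles lie between 21.3% and 22.9%, and CeD+GR 1, CeD+GR 2 and CeD 1 lie near 10%, at 9.53% to 10.8%.

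Levels of single V genes spanned 3 orders of magnitude. Means over the 9 libraries ran between 0.123 and 164 FPKM with a median of 6.43 FPKM. A mean of at least 20 FPKM was reached by 17 genes, at least 10 FPKM by 37 and at least 1 FPKM by 74, and 29 genes had a value above 0 in all 9 libraries. Only 12 of the 78 tested genes had at least 10 reads in every library. Of 60 Igkv pseudogenes in the table, 1 had a value in at least 3 libraries, and the highest pseudogene mean was 0.255 FPKM.

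The highest kappa gene was Igkv6-23, of the Igkv6 family, whose end differs little from that of Igkv6-15 in the sequences above. Igkv6-23 had 120, 18.4 and 17.2 FPKM in CeD+GR 1, 2 and 3, then 188, 19.9 and 7.89 FPKM in CeD 1, 2 and 3, and 154, 9.995 and 25.4 FPKM in control 1, 2 and 3. Igkv6-15 had 90.6, 7.87 and 22.0 FPKM in CeD+GR, 97.1, 7.80 and 9.09 FPKM in CeD, and 69.0, 7.28 and 9.74 FPKM in control. Both genes had the library numbered 1 on top in every group, and the groups overlapped. Igkv6-17 (chr6:70371439-70371993) had 35.6, 6.06 and 11.03 FPKM in CeD+GR, 91.2, 2.95 and 3.06 FPKM in CeD, and 55.9, 2.54 and 1.57 FPKM in control.

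Igkv1-117 and Igkv1-110, 97.2% identical over the coding sequence, differed in which libraries they were high in. Igkv1-117 had 154, 4.56 and 64.8 FPKM in CeD+GR, 43.3, 8.93 and 1.05 FPKM in CeD, and 88.5, 8.62 and 13.6 FPKM in control. It took 12.6% of the summed V level in CeD+GR 3, where it ranked second. Igkv1-110 had 67.6, 19.3 and 13.1 FPKM in CeD+GR, 61.5, 15.2 and 4.09 FPKM in CeD, and 88.5, 19.8 and 17.3 FPKM in control. Igkv1-110 was thus the steadier of the pair among the libraries numbered 2 and 3.

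Other families supplied the remaining genes among the 12 highest. Igkv15-103, the single gene of its family (chr6:68437440-68437925), had 119, 8.63 and 16.3 FPKM in CeD+GR, 122, 2.41 and 1.62 FPKM in CeD, and 59.3, 9.11 and 41.3 FPKM in control. Igkv10-96 (chr6:68631963-68632442) had 140, 5.48 and 11.1 FPKM in CeD+GR, 136, 20.9 and 4.73 FPKM in CeD, and 36.1, 7.23 and 14.5 FPKM in control. In the libraries numbered 1 both were lowest in control. Igkv3-2 (chr6:70698449-70699067) had 157, 0 and 4.37 FPKM in CeD+GR, 39.6, 4.41 and 1.44 FPKM in CeD, and 24.7, 2.89 and 1.57 FPKM in control. Its 0 reads in CeD+GR 2 allow up to 0.504 FPKM, and CeD+GR 1 alone held 66.5% of its sum over the libraries.

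The Igkv5 family gave 3 of the 12 highest genes, with CeD 1 on top for Igkv5-48 and Igkv5-43. Igkv5-39 had 44.1, 4.94 and 6.35 FPKM in CeD+GR, 114, 2.80 and 3.15 FPKM in CeD, and 141, 7.87 and 4.27 FPKM in control. Igkv5-48 had 71.7, 1.76 and 5.78 FPKM in CeD+GR, 137, 3.66 and 2.02 FPKM in CeD, and 42.9, 7.02 and 1.48 FPKM in control. Igkv5-43 had 93.7, 2.85 and 2.42 FPKM in CeD+GR, 122.97, 1.28 and 2.40 FPKM in CeD, and 33.9, 1.62 and 9.07 FPKM in control. Outside the libraries numbered 1 these 3 genes stayed under 10 FPKM, within 1.28 to 9.07 FPKM. Igkv5-45, whose end matches that of Igkv5-43 base for base, was far lower, with a mean of 2.85 FPKM against 30.02 FPKM.

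**Figure D3:**
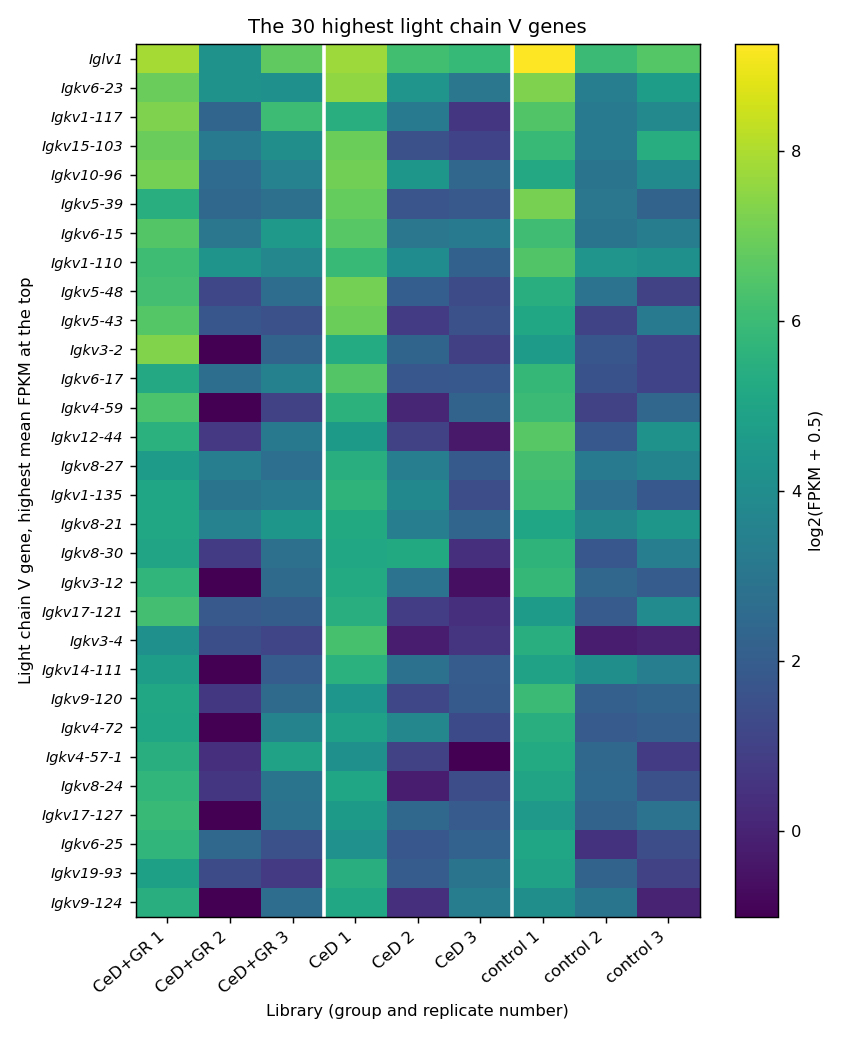
Level of the 30 V genes with the highest mean (rows, highest at the top) in the 9 libraries (columns), as colour on the scale of log2(FPKM + 0.5). The columns of CeD+GR 1, CeD 1 and control 1 are bright for nearly all genes, Iglv1 in control 1 (612 FPKM) is the brightest cell, and CeD+GR 2 holds the most cells at 0.

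Some genes owed their level to a single library. For 23 of the 87 genes 1 library held more than all others together. Igkv12-38 had 23.4 FPKM in CeD 1 and at most 1.74 FPKM elsewhere, so that CeD 1 held 81.6% of its sum. Igkv4-70 had 89.1 FPKM in control 1 and at most 12.6 FPKM elsewhere, a share of 79.97%. This gene is 97.4% identical to Igkv4-59, which had 81.2 FPKM in CeD+GR 1, 47.4 FPKM in CeD 1 and 62.5 FPKM in control 1. Igkv1-122 had 10.7 FPKM in CeD 1 (76.7% of its sum), Igkv3-1 had 25.9 FPKM in control 1 (67.9%) and Igkv4-80 had 17.4 FPKM in CeD 1 (59.7%). At the other end, the most even gene was Igkv8-21, for which the highest library, CeD 1, held 19.99% of the sum. Igkv8-30 was the V gene that ranked second in CeD 2, with 36.8 FPKM and 10.9% of the summed V level there, against 1.21 to 50.4 FPKM in 7 of the other libraries and 0.824 FPKM in CeD 3.

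The libraries numbered 1 also held more different V genes. A value above 0 was found for 85, 39 and 72 genes in CeD+GR, 86, 69 and 62 genes in CeD, and 85, 66 and 66 genes in control. Since a library with more V reads can show more genes, the number expected in 1000 V reads was computed for each. It was 72.7, 39.0 and 63.8 in CeD+GR, 71.5, 62.7 and 61.0 in CeD, and 68.1, 63.7 and 59.1 in control. CeD+GR 2, with 1029 V reads, stood lowest on both counts. The effective number of genes, the number of equally used genes that would give the same Shannon entropy, was 46.3, 24.6 and 26.9 in CeD+GR, 42.7, 25.01 and 24.1 in CeD, and 34.5, 31.0 and 28.8 in control. Group means of 32.6 ± 11.9 in CeD+GR, 30.6 ± 10.5 in CeD and 31.4 ± 2.90 in control (SD, n = 3 each) differed by less than the spread within the groups. The 10 leading genes held 45.1%, 64.6% and 63.0% of the summed V level in CeD+GR, 51.1%, 66.3% and 60.3% in CeD, and 51.8%, 54.9% and 58.2% in control.

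The order of the V genes was broadly shared between libraries. Spearman's rho over the 87 genes ranged between 0.475 and 0.832 with a median of 0.647 over the 36 pairs of libraries. It was 0.773 to 0.832 among the 3 libraries numbered 1 and 0.475 to 0.567 for the 8 pairs that include CeD+GR 2, which has the fewest V reads. These values are across genes, which are not independent replicates.

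By family, Iglv1 led with a mean of 18.0% of the summed V level, followed by Igkv6 with 13.9% (9 genes), Igkv1 with 10.6% (7 genes), Igkv4 with 10.1% (21 genes) and Igkv8 with 9.89% (9 genes). Igkv6 held 14.2%, 23.9% and 12.5% in CeD+GR, 17.1%, 11.3% and 14.5% in CeD, and 12.6%, 9.36% and 9.63% in control. Its group means were 16.9% ± 6.18 in CeD+GR, 14.3% ± 2.93 in CeD and 10.5% ± 1.82 in control (SD, n = 3 each), and the ranges overlapped. Igkv1 held 9.62%, 17.9% and 17.4% in CeD+GR, 7.26%, 11.4% and 4.601% in CeD, and 8.70%, 11.6% and 7.11% in control. Igkv4, the largest family by gene number, held 13.3%, 4.64% and 11.02% in CeD+GR, 11.5%, 6.44% and 10.6% in CeD, and 13.8%, 7.18% and 12.5% in control. In each group Igkv4 was lowest in the library numbered 2.

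Among the next families, Igkv8 held 5.79%, 13.9% and 9.84% in CeD+GR, 6.63%, 17.6% and 6.37% in CeD, and 7.89%, 10.5% and 10.5% in control, with the peak in CeD 2 where Igkv8-30 ranked second. Igkv5 held 8.76%, 5.49% and 2.83% in CeD+GR, 15.0%, 2.67% and 3.98% in CeD, and 7.90%, 5.52% and 7.01% in control. Igkv3 held 11.96%, 1.60% and 2.66% in CeD+GR, 8.22%, 4.57% and 3.38% in CeD, and 8.21%, 5.24% and 2.21% in control. Igkv12 was the steadiest of the families with a mean above 5%, at 4.27% to 5.56% in CeD+GR, 3.56% to 4.35% in CeD and 5.17% to 6.70% in control. Igkv7 and Igkv11, with 1 gene each, averaged 0.0216% and 0.0184% of the summed V level.

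**Figure D4:**
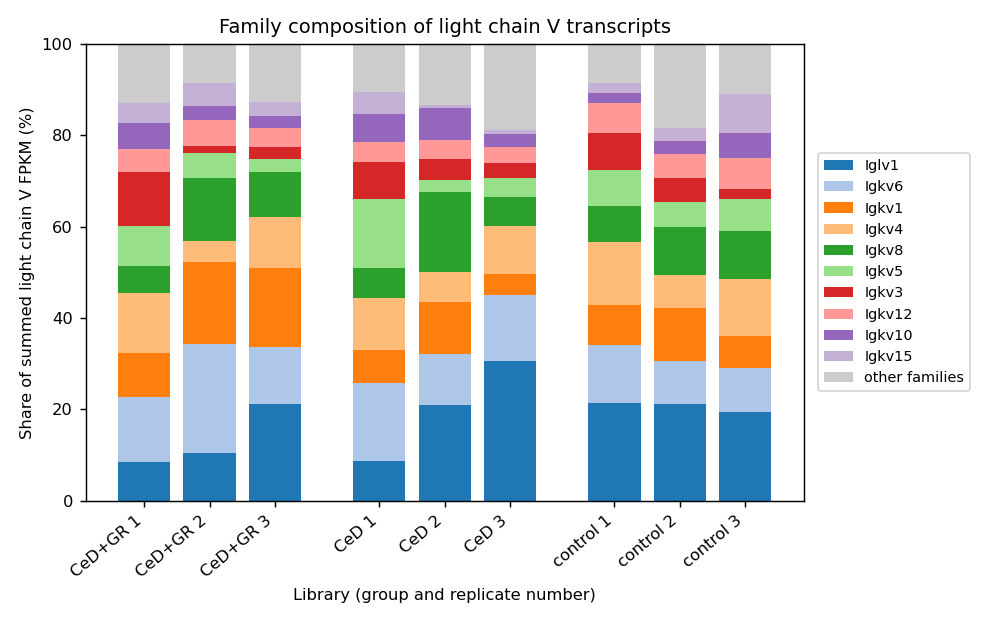
Share of the summed light chain V FPKM in percent (vertical axis) taken by the 10 leading families in each of the 9 libraries (stacked bars), with all other families in grey. Iglv1 ranges between 8.47% and 30.5%, and Igkv6 reaches its highest share, 23.9%, in CeD+GR 2.

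The kappa V genes lie on chromosome 6 between positions 67609713 and 70704177 of mm10, and range between 18.4 kb (Igkv3-1) and 3112 kb (Igkv1-135) from Igkj1, the first J segment. The lambda V genes lie on chromosome 16 between 19085017 and 19260859. By distance from Igkj1, the 22 genes within 600 kb took 25.4% to 41.9% of the kappa V level in the 9 libraries, and the 19 genes between 600 and 1200 kb took 14.3% to 27.0%. The 14 genes between 1200 and 1800 kb took 2.60% to 12.3%, the 13 genes between 1800 and 2400 kb took 11.2% to 21.9%, and the 16 genes between 2400 and 3200 kb took 15.5% to 33.6%. Median gene level was 11.1, 7.04, 4.14, 5.73 and 11.7 FPKM in these 5 stretches in order, so the 2 ends of the locus were higher than its middle. The 30 genes on the plus strand held 31.7% to 45.2% of the kappa V level, with a median gene level of 11.01 FPKM. The 54 genes on the minus strand, the strand opposite to Igkc, had a median of 5.57 FPKM.

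Between CeD and control, 0 of the 78 tested V genes passed an adjusted p of 0.05 (limma, Benjamini-Hochberg over 14683 genes), and the share among all genes was 0%. At an unadjusted p under 0.05 there were 0 V genes, against 0.272% of all genes higher in CeD and 0.429% lower, 103 in all. The log2 fold changes of the V genes had a median of -0.25, with 32 above and 46 below 0, beside 0.00 for all genes. Their median standard error was 1.42, against 0.348 for all genes. The model had no term for replicate number, so the gap between libraries numbered 1 and the rest enters this error. The same holds for the other comparisons. With replicate number added to the limma model, 1 V gene was higher and 6 were lower at an unadjusted p under 0.05. Among all 14683 genes 193 were, and again 0 V genes passed after adjustment. Limma-voom on the recovered reads likewise called 0 V genes in each of the 3 comparisons. No V gene had groups that do not overlap, whereas 2.20% of all genes were higher in every CeD library and 2.49% lower. Iglv1 had a log2 fold change of -0.67 with a standard error of 1.10. Igkv5-37 had 0 reads in all 3 CeD libraries, each of which allows 0.469 to 0.580 FPKM, against 4.59, 0 and 18.3 FPKM in control. Its fitted change of -2.86, with a standard error of 1.64, depends on the pseudocount. Igkv12-44 had -2.43 with a standard error of 1.66, from 23.9, 1.56 and 0.303 FPKM in CeD and 94.8, 3.07 and 18.2 FPKM in control. On the positive side Igkv1-99 had 1.62 and Igkv1-122 had 1.61, with standard errors of 1.36 and 1.07, and CeD 1 carried both. The 6 tested genes of family Igkv8 all had negative fold changes, between -0.91 and -0.03, and 0 of them passed. Signs differed between families. Of the tested genes, Igkv1 had 5 above and 2 below 0, and Igkv6 had 5 above and 3 below 0.

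The median fold change of CeD against control turned on single libraries. It was -1.36 without CeD 1 and 0.80 without control 1. Within the same replicate number the median difference of CeD minus control was -0.01 for number 1, 0.00 for number 2 and -0.49 for number 3.

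Between CeD+GR and CeD, which asks what the particles changed in the model, again 0 of 78 V genes passed an adjusted p of 0.05 in limma, with 0% among all genes. At an unadjusted p under 0.05 there were 0 V genes, against 1.14% of all genes higher in CeD+GR and 1.76% lower, 425 in all. The median log2 fold change of the V genes was 0.10, with 46 above and 32 below 0, beside 0.01 for all genes. Igkv4-90 was the 1 V gene with groups that did not overlap, 1.28% of 78, while 3.01% of all genes were higher in every CeD+GR library and 3.04% lower. It had 10.8, 1.26 and 1.74 FPKM in CeD+GR against 0.478, 0.591 and 0 FPKM in CeD. Its log2 fold change was 2.13 with a standard error of 1.23, and control spanned 0 to 15.8 FPKM. The smallest unadjusted limma p of a V gene was 0.0563, for Igkv12-89, with 4.78, 2.82 and 5.79 FPKM in CeD+GR against 3.65, 0 and 0 FPKM in CeD. Its log2 fold change was 2.24 with a standard error of 1.02, and its adjusted p was 1. Igkv1-117 had 2.11 with a standard error of 1.54, Igkv6-20 had 1.61 with 0.99, and Igkv14-111 had -1.54 with 1.38. Iglv1 had -0.31 with a standard error of 1.10, and Igkv6-23 had 0.11 with 1.34. Without CeD+GR 1 the median of the V genes was -0.89, and without CeD 1 it was 1.24. The median difference of CeD+GR minus CeD was 0.25, -0.47 and 0.88 for replicate numbers 1, 2 and 3.

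Between CeD+GR and control, 0 of 78 V genes passed an adjusted p of 0.05 in limma, with 0% among all genes, and 0 V genes had an unadjusted p under 0.05, against 1.31% of all genes higher in CeD+GR and 1.41% lower, 400 in all. The median log2 fold change was -0.05, with 34 above and 44 below 0, beside -0.00 for all genes. No V gene had groups that do not overlap, against 2.54% of all genes that were higher in every CeD+GR library and 3.04% lower. Igkv14-111 had a log2 fold change of -2.22 with a standard error of 1.38, from 26.5, 0 and 3.49 FPKM in CeD+GR and 29.4, 16.7 and 9.99 FPKM in control. The values of the libraries numbered 1 were close, and in those numbered 2 and 3 CeD+GR lay below control. Iglv1 had -0.97 with a standard error of 1.10, Igkv1-99 had 1.85 with 1.36 and Igkv10-94 had -1.46 with 1.59. Without CeD+GR 1 the median was -1.23, and without control 1 it was 0.87. The 3 comparisons share groups, so their values are not independent of each other.

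**Figure D5:**
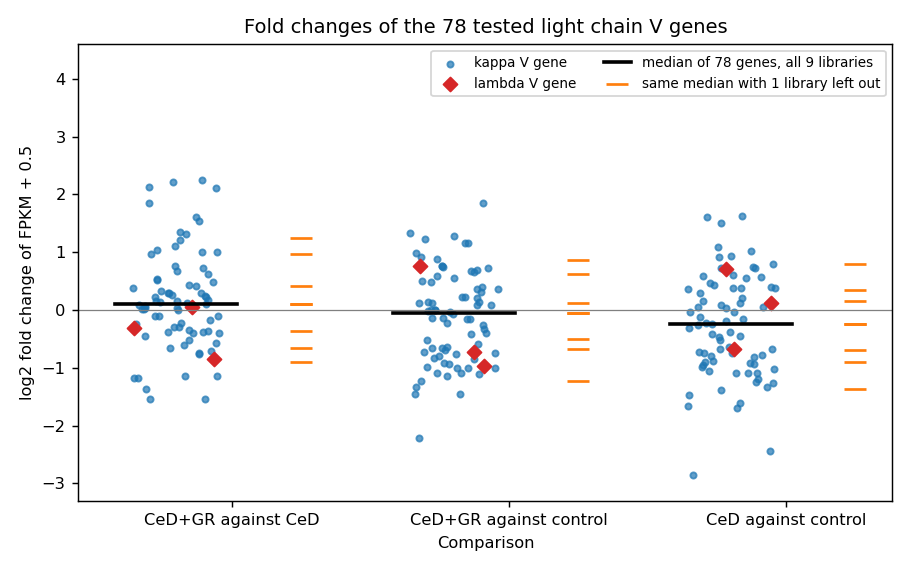
Log2 fold changes of FPKM + 0.5 (vertical axis) of the 78 tested V genes in the 3 comparisons (horizontal axis), kappa genes as circles and lambda genes as diamonds. Black bars give the medians of 0.10, -0.05 and -0.25 in the order plotted, and short orange bars the same median with 1 library left out in turn, between -1.36 and 1.24 over the 3 comparisons.

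Related gene lists gave no called gene in any comparison either. The 15 tested plasma cell markers had median log2 fold changes of -0.01 in CeD+GR against CeD, -0.22 in CeD+GR against control and -0.18 in CeD against control. The 11 tested light chain constant and J segments had -0.19, -0.91 and -0.57 in the same comparisons. In CeD+GR against control 10 of the 11 were below 0, and the median over all genes was -0.00. Most of these segments are J segments, which are very short, and several were at 0 in some libraries, as Igkj1 was in CeD+GR 2. Of the 15 B cell markers 6 reached the level tested, with medians of -0.16, -0.13 and 0.14 in that order. The 9 listed factors of light chain promoters and enhancers, which include the coactivator Pou2af1, had medians of 0.07, -0.08 and -0.18. None of the 6 recombination and surrogate light chain genes reached the level tested.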

How the data were processed

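The authors deposited FPKM per gene for 9 duodenum libraries. Per the labels' protocols, libraries were directional and made after removal of ribosomal RNA. The build mm10 and the tools featureCounts 1.5.0-p3, HISAT2 2.0.5, DESeq2 1.20.0 and fastp come from the submitters' processing notes, without role or order. Strand setting, annotation release and handling of reads matching several genes: not given in the sources used here. Rearranged transcripts were thus measured on germline V gene models.

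In every library 100% of values above 0, multiplied by gene length, fell within 0.1 reads of whole multiples of a fixed step, so whole reads were recovered. The steps correspond to library sizes of 14410550 to 18206426, which are not the reads assigned to genes, so the deposited FPKM carry a scaling between libraries.

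Values were taken as log2(FPKM + 0.5), which understates the change of low genes, without further scaling. Genes averaging 0.5 FPKM or more were compared with limma 3.58.1 (R 4.3.3) in 1 group-means model over 9 libraries, with empirical Bayes moderation, a mean-variance trend and Benjamini-Hochberg adjustment, two-sided, at 0.05. An exact permutation test of 3 libraries against 3 cannot give a p under 0.1. Shares of reads have 95% Wilson intervals. A limit for 0 is 3 reads per library. Steps were tested on simulated data.

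Named are the 12 genes with the highest mean, all lambda genes, up to 4 per direction and comparison with the smallest unadjusted p, and up to 6 with the largest share of their sum in 1 library. Igkv4-59, Igkv5-45, Igkv8-21, Igkv8-30, Igkv6-29, the genes at the limit of the rule and those highest outside the libraries numbered 1 were chosen after their values were seen. The members, lists and tests were chosen with earlier results of these data known. Alternatives were pseudocounts of 0.1 and 1, other filters, rescaling, a replicate block, leaving out libraries, limma-voom on recovered reads and a term for replicate 1. The main model did not treat the replicate numbers as pairs. The replicate block and the differences within the same replicate number do match libraries by number.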

Additional observations from a re-analysis of the deposited data

How the results depend on the processing

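In 19 alternatives per comparison 0 light chain V genes passed the threshold (limma or limma-voom), with smallest adjusted p of 0.657 for CeD+GR against CeD, 0.642 for CeD+GR against control and 1 for CeD against control. The median log2 fold change of the V genes changed sign with the library left out: -0.89 (without CeD+GR 1) to 1.24 (without CeD 1) for CeD+GR against CeD, -1.23 (without CeD+GR 1) to 0.87 (without control 1) for CeD+GR against control, and -1.36 (without CeD 1) to 0.80 (without control 1) for CeD against control. With replicates 2 and 3 only these medians were 0.17, -0.24 and -0.37, and without CeD 1 and CeD+GR 3 they were 1.50, 0.11 and -1.36. Among all genes, leaving out single libraries gave 0 to 1 called genes for CeD+GR against control, the 1 without control 1. The kappa share was 94.1% (CeD+GR), 92.3% (CeD) and 91.5% (control) from constant segments, a different measure, and 77.8% in control from recovered reads. The effective number of genes was 25.7 in CeD+GR without CeD+GR 1 and 24.6 in CeD without CeD 1. With the replicate block, 0 V genes were called and the medians stayed at 0.10, -0.05 and -0.25; 6, 1 and 7 of 78 V genes had an unadjusted p under 0.05, against 805, 643 and 193 of all 14683 genes. After each gene's group mean was subtracted from the log2 values, correlations of same-numbered libraries over the tested genes ran between -0.12 and 0.71. They were over 0.1 in 7 of 9 pairs, and by this measure 5 of 9 libraries were closest to their own number. The subtraction pushes libraries of the same group apart, which favours matches across groups. The count therefore does not show whether the numbers mark pairs. Limma-voom on recovered reads, the term for replicate 1 and the constant segment share were chosen after seeing the data. The edgeR alternative was not run, and limma-voom took its place. Low V read numbers, 1029 in CeD+GR 2, limit what could be seen of rare genes.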
